A study of Drosophila melanogaster with 2 samples.

Results

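The nuclei described here were selected on the measured levels of 6 genes, mostly genes of digestive enzymes, in snRNA-seq of dissected *Drosophila* nephrocytes. A nucleus was a member if it held at least 1 unique molecular identifier (UMI, a tag that marks 1 captured transcript) in 2 or more of 6 genes, *betaTry*, *alphaTry*, *Amy-p*, *Jon65Aiv*, *mex1* and *Npc1b*, and if the summed UMIs of these genes made up at least 5 times their pooled share of all UMIs. The pooled share was 505 CPM (counts per 1000000 UMIs), which put the threshold at 2523 CPM, or 0.252% of the UMIs of a nucleus. The rule took 349 of 13868 nuclei. It gave 158 of 7890 nuclei (2.0%, 95% Clopper-Pearson interval 1.70 to 2.34) in the larger of the 2 deposited count matrices and 191 of 5978 nuclei (3.20%, 2.76 to 3.67) in the smaller one. All intervals here cover counting error only.

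The midgut is the digestive and absorptive part of the fly intestine. Its enterocytes secrete trypsins, chymotrypsin-like Jonah proteases, amylase and maltases into the lumen, and carry a brush border of microvilli and smooth septate junctions that seal the epithelium. Midgut identity is kept by transcription factors such as the GATA factor *GATAe* and the POU factor *nub*, and other homeobox factors mark regions along its length.

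The flies were w1118 adults aged 5 to 7 d in which *Dot-Gal4* drove a nuclear GFP, 1 female and 1 male sample, each pooled from many flies. The labelled cell type was nephrocytes, so there was no sample of gut, and every nucleus in the comparison carried the same driver and reporter. Barcode columns named no sample, so neither matrix was assigned a sex, and no comparison of the sexes was made. The 13868 nuclei held 37238167 UMIs, at least 500 each, and 14 barcodes occurred in both matrices, with 0 members among them. Members had a median of 1500 UMIs in the larger and 2396 UMIs in the smaller matrix, against 1311 and 1467 UMIs in all other nuclei. Members held 3.32% of all UMIs and 46.4% of the UMIs of the 6 genes.

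The 6 genes chose the nuclei, so their levels are a description without a test. *Jon65Aiv*, a Jonah serine protease, stood at 4117 CPM in members and 27.8 CPM in all other nuclei of the larger matrix, and at 2672 CPM in members and 49.0 CPM in all other nuclei of the smaller matrix. *Amy-p*, the proximal amylase gene, stood at 2742 CPM in members and 184 CPM in other nuclei of the larger matrix, and at 3073 and 273 CPM in the smaller. Both genes were found together in 313 of the 349 members. The trypsin gene *alphaTry* stood at 867 CPM in members against 9.53 CPM in other nuclei of the larger matrix and at 555 against 13.4 CPM in the smaller. Its neighbor *betaTry* stood at 247 against 2.62 CPM and at 249 against 3.64 CPM. One or both of these trypsin genes were found in 202 members.

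The 2 genes of the rule that act in the enterocyte itself were close to absent. *mex1*, a membrane protein of the enterocyte brush border, had 5 UMIs in 5 members of the larger matrix (11.9 CPM, against 0.107 CPM in other nuclei) and 19 UMIs in 16 members of the smaller (23.3 CPM, against 1.27 CPM). *Npc1b*, which is needed for sterol absorption in the midgut, had 0 UMIs in members of both matrices, which allows up to 7.12 CPM in the larger and 3.69 CPM in the smaller. Other nuclei had 2 UMIs of *Npc1b* in the larger matrix (0.107 CPM) and 0 in the smaller, so its 0 in members says nothing about their identity. The label of these nuclei therefore rests on secreted enzymes, and they are called digestive enzyme nuclei below. In the plot of the 6 genes, the enzyme genes lie far apart between members and other nuclei, and *mex1* and *Npc1b* lie at the bottom.

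**Figure D1:**
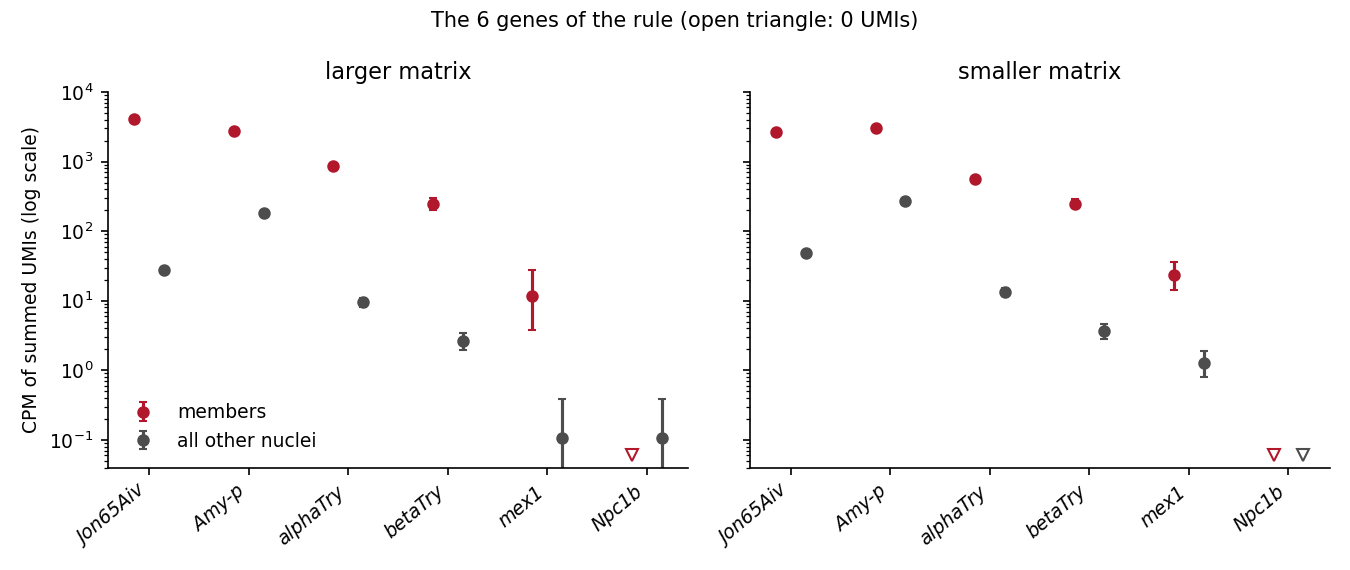
Level of the 6 genes of the rule in digestive enzyme nuclei (members, red) and all other nuclei (grey), as CPM of summed UMIs on a log scale, for the larger (left) and smaller matrix (right). Points are sums over nuclei with exact Poisson 95% intervals and open triangles mark 0 UMIs. *Jon65Aiv* reaches 4117 CPM in members of the larger matrix, and *mex1* 11.9 CPM.

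Members differed in how many of the 6 genes they showed. UMIs of 2 genes were found in 170 members, of 3 genes in 107, of 4 genes in 67 and of 5 genes in 5. The median member had 17 summed UMIs of the 6 genes in each matrix, 246 members had at least 10, and 11 members qualified on 2 UMIs. *Amy-p* was the most abundant of the 6 in 66 members of the larger and 118 of the smaller matrix, and *Jon65Aiv* in 83 and 66 members. Just inside the threshold, 6 nuclei of the larger and 19 of the smaller matrix had 5 to 6 times the pooled share. Just outside it, 12 and 30 nuclei with 2 or more of the genes had 4 to 5 times the share. *Jon65Aiii*, the adjacent Jonah gene, stood at 1056 and 927 CPM just inside, against 988 and 652 CPM just outside, in the larger and the smaller matrix. The muscle gene *Mhc* stood at 76.8 and 70.8 CPM inside, against 335 and 394 CPM outside, and the fat body gene *apolpp* at 4338 and 3038 CPM inside, against 2277 and 3426 CPM outside. Nuclei near the threshold were also deep, with median UMI totals of 6457 and 4315 inside, against 7064 and 6206 outside.

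The remaining genes were compared between digestive enzyme nuclei and all other nuclei by edgeR's quasi-likelihood test on UMIs summed per matrix, with the matrix as a block. Of 10680 genes tested, 407 were higher (3.81%) and 612 lower (5.73%) in members at a Benjamini-Hochberg adjusted p of 0.05 or less. Each count of genes called in a list below is to be read against these shares. The median log2 fold change of all genes tested was -0.15, so a gene at that value did not move relative to the rest. The fit had 2 matrices and 1 residual degree of freedom. Its p-values borrow the spread from all genes and describe these 2 preparations, and without the block edgeR called 0 genes (718 had an unadjusted p under 0.05). DESeq2, with the block, called 272 genes higher and 155 lower. Log2 fold changes are given with their standard error (SE), and the levels in both matrices are given beside most of them.

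Digestive proteases outside the rule were among the genes most raised. *Jon65Aiii* stood at 3084 CPM in members and 34.9 CPM in other nuclei of the larger matrix, and at 2476 CPM in members and 65.3 CPM in other nuclei of the smaller (log2 fold change 5.81, SE 0.19, edgeR adjusted p = 1.4e-188). Its close copy *Jon65Aiv* is a gene of the rule, so the *Jon65Aiii* call cannot be separated from the selection. *Jon65Aiii* was found in 287 of 349 members, with a median of 5 UMIs per member nucleus in each matrix and a highest value of 66, and 65.0% of all its UMIs lay in members. After each nucleus was thinned to 500 UMIs, 63.3% and 63.4% of members had a UMI of *Jon65Aiii*, against 1.85% and 2.0% of other nuclei. *yip7*, a related serine protease, stood at 1600 against 14.9 CPM and at 817 against 28.8 CPM (log2 fold change 5.73, SE 0.21). *Jon99Cii* stood at 525 against 8.94 CPM and at 298 against 12.0 CPM (5.21, SE 0.22). *Jon99Ci* and *Jon99Ciii* lie beside *Jon99Cii* on chromosome arm 3R. *Jon99Ci* stood at 102 against 0.910 CPM and at 92.1 against 2.37 CPM (5.87, SE 0.33), with 26 of its 118 member UMIs in 1 nucleus. Only with a sum of members did *Jon99Ci* have enough UMIs for the test, so its call is a description. *Jon99Ciii* stood at 42.7 against 0.482 CPM and at 24.6 against 0.520 CPM (5.95, SE 0.56), so it had enough UMIs for the test only through the members.

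These were 4 of 11 Jonah genes matched outside the rule. The other 7 had 0 to 3 UMIs in members and were not tested, and none of them was called when the filter on low counts was left out. Of 11 trypsin-like genes matched outside the rule, only *epsilonTry* had enough UMIs for the test, and it was higher at 28.5 CPM against 0.321 CPM in the larger matrix and 2.46 CPM against 0.0577 CPM in the smaller. That call rests on 14 UMIs in 7 members, and *epsilonTry* had enough UMIs for the test only through the members. The paired genes *Phae1* and *Phae2* on chromosome arm 2L, which encode serine proteases, were higher by 3.31 (SE 0.50) and 3.94 (SE 0.34) on the log2 scale, with *Phae2* at 42.7 against 2.25 CPM and at 74.9 against 5.43 CPM. The Jonah genes and the trypsin genes are close copies of one another. How reads shared between copies were counted is not given in the sources used here, so the split between neighbors such as *Jon65Aiii* and *Jon65Aiv* is uncertain.

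Enzymes that digest starch and sugars were raised in part. *Amy-d*, the distal amylase gene and near-identical to *Amy-p*, stood at 513 CPM in members against 30.2 CPM in other nuclei of the larger matrix, and at 459 against 38.6 CPM in the smaller (log2 fold change 3.79, SE 0.20). *Amy-p* is a gene of the rule, and how reads shared by both were counted is not given. The *Amy-d* call therefore cannot be separated from the selection. *Mal-A6* and *Mal-A1* encode maltases. *Mal-A6* stood at 61.7 against 0.589 CPM and at 97.0 against 1.27 CPM (6.39, SE 0.38), and *Mal-A1* at 42.7 against 0.856 CPM and at 94.6 against 1.85 CPM (5.64, SE 0.38). These maltases were detected in 38 and 41 members. Of their UMIs in members, 29 of 105 for *Mal-A6* and 24 of 95 for *Mal-A1* came from 1 nucleus. Both maltases had enough UMIs for the test only with a sum of members, so their calls are a description. Of 9 carbohydrases tested, these 3 were higher, the lysosomal mannosidase *LManII* was lower at 11.9 against 46.0 CPM and 34.4 against 58.4 CPM (-1.10, SE 0.30), and 5 were not called, *Mal-B2* among them at 52.2 against 48.8 CPM and 89.7 against 106 CPM. The list's median log2 fold change was -0.13. DESeq2 called the same 3 higher and did not call *LManII*.

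Among lipases, *CG6295* was higher and the other 2 tested were not called. Of its 35 UMIs in members, 15 came from 1 nucleus, and it had enough UMIs for the test only through the members. *LysC* and *LysD*, of the lysozyme cluster, were higher out of 5 lysozyme genes tested. *LysD* stood at 80.7 CPM in members against 1.71 CPM in other nuclei of the larger matrix and at 25.8 against 11.9 CPM in the smaller. Of 7 genes for mucins and peritrophic matrix proteins, which line the gut lumen, *Muc68E* was higher at 83.1 against 5.51 CPM and 57.7 against 6.29 CPM (3.50, SE 0.31). *Peritrophin-A* was lower at 28.5 against 107 CPM and 50.4 against 59.7 CPM (-0.91, SE 0.26). DESeq2 called neither *LysC* nor *Peritrophin-A*.

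By the size rule for named genes, 97 genes were higher, each with at least 20 UMIs in members and more than 3 times the level of other nuclei in both matrices. The 20 with the largest ratio were *Diedel3*, *CG5107*, *CG12374*, *Mal-A6*, *CG6295*, *CG32054*, *Jon99Ciii*, *Jon99Ci*, *CG31104*, *Mal-A1*, *Jon65Aiii*, *AANATL3*, *yip7*, *Oatp33Ea*, *CG10910*, *CG34176*, *hiro*, *Jon99Cii*, *CG5011* and *CG15422*. The first 2 rest on few nuclei. *Diedel3* had 17 of its 23 member UMIs in 1 nucleus, and *CG5107* 25 of 33. *Diedel3*, *CG5107*, *CG12374*, *CG6295*, *CG32054*, *Jon99Ciii*, *CG34176* and *hiro* had under 1 CPM in other nuclei of both matrices. They had enough UMIs for the test only through the members, so their calls are a description. *Mal-A6*, *Jon99Ci*, *CG31104*, *Mal-A1*, *AANATL3*, *CG5011* and *CG15422* were also under 1 CPM in other nuclei of the larger matrix. These genes had enough UMIs for the test only with a sum of members, so their calls are a description too. *CG10910* was the broadest of those that are not proteases, at 689 CPM in members against 7.76 CPM in other nuclei of the larger matrix and 625 against 21.0 CPM in the smaller, and was found in 181 members. *Oatp33Ea*, an organic anion transporter, stood at 202 against 2.09 CPM and at 197 against 6.01 CPM in 113 members.

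**Figure D2:**
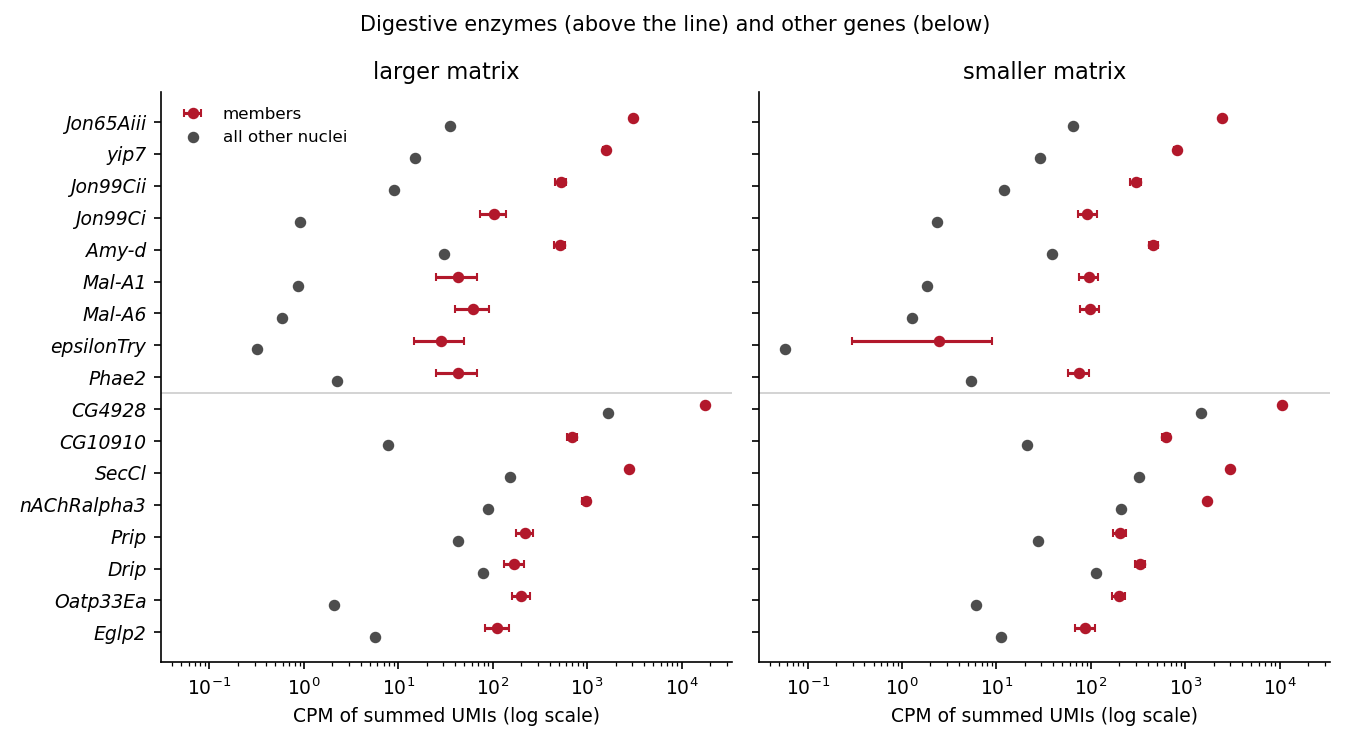
CPM of summed UMIs on a log scale for digestive enzymes outside the rule and for other genes raised in digestive enzyme nuclei (members, red, with exact Poisson 95% intervals) and in all other nuclei (grey), larger matrix left and smaller matrix right. Each member value lies right of its grey point, with *CG4928* highest at 17619 CPM in members of the larger matrix and *epsilonTry* resting on 14 UMIs.

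Several genes with high levels in members belong to no list of digestive genes. *SecCl* is on a marker list of another cell type, and the others given here were chosen after their values were seen. *CG4928*, which encodes a predicted membrane protein of the UNC93 family, had 16034 UMIs in 331 of 349 members. It stood at 17619 CPM in members against 1666 CPM in other nuclei of the larger matrix, and at 10580 against 1486 CPM in the smaller (log2 fold change 3.08, SE 0.15). *SecCl*, a chloride channel, stood at 2785 against 151 CPM and at 2987 against 323 CPM (3.66, SE 0.17). *Ncc69*, a sodium-potassium-chloride cotransporter, stood at 1614 against 184 CPM and at 2193 against 326 CPM (2.90, SE 0.17). *nAChRalpha3*, a subunit of nicotinic acetylcholine receptors, stood at 971 against 90.0 CPM and at 1712 against 210 CPM (3.19, SE 0.18). *TyrR*, a tyramine receptor, stood at 166 against 8.13 CPM and at 198 against 16.9 CPM (3.87, SE 0.23). Unlike *Jon65Aiii*, these genes were mostly found elsewhere: members held 22.0% of the UMIs of *CG4928* and 30.0% of those of *SecCl*. After thinning, *CG4928* was found in 91.1% and 90.1% of members, against 20.7% and 20.6% of other nuclei.

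Of the marker lists for the Malpighian tubule, 3 of 7 stellate cell genes and 1 of 8 principal cell genes tested were higher. *Prip*, an aquaporin, stood at 218 CPM in members against 42.8 CPM in other nuclei of the larger matrix and at 203 against 27.6 CPM in the smaller (log2 fold change 2.59, SE 0.21). *Drip*, also an aquaporin, stood at 169 against 78.6 CPM and at 330 against 114 CPM (1.32, SE 0.20). *Eglp2*, an aquaglyceroporin, stood at 112 against 5.67 CPM and at 87.2 against 11.1 CPM (3.53, SE 0.26). *SecCl*, *Prip* and *Drip* were the stellate genes called. The stellate factors *tsh* (28.5 against 38.0 CPM and 22.1 against 16.2 CPM) and *tio* (1 UMI in members of each matrix) were not called. Neither were the chloride channel *ClC-a* and the kinin receptor *Lkr*. *Lkr* was called higher when the other nuclei were limited to those with no UMI of the 6 genes. *ClC-a* was called lower at 10 times the pooled share. The list's summed level was 3284 CPM in members against 402 CPM in other nuclei of the larger matrix and 3670 against 633 CPM in the smaller, of which *SecCl* alone made 2785 and 2987 CPM in members. *Eglp2* was the principal cell gene called. On the same list *Uro*, the urate oxidase gene, had 1 UMI in members and *CapaR* 0. A count of 0 allows up to 7.12 CPM in the larger and 3.69 CPM in the smaller matrix.

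Most other nutrient transporters were not called. Of 22 tested, 2 were higher and 1 lower, with a median log2 fold change of -0.07. Over all genes tested 3.81% were higher and 5.73% lower, and these counts do not set the list apart. *Oatp33Eb* stood at 90.2 against 28.3 CPM and at 52.8 against 28.8 CPM (1.23, SE 0.26), and the cationic amino acid transporter *slif* at 45.1 against 18.0 CPM and at 36.9 against 11.1 CPM (1.51, SE 0.31). The amino acid transporter *path* was lower at 686 against 1074 CPM and 1155 against 1543 CPM (-0.56, SE 0.16), and DESeq2 did not call it. The trehalose transporter *Tret1-1* stood at 995 CPM in members against 1089 CPM in other nuclei of the larger matrix and at 1204 against 1089 CPM in the smaller. Of 14 genes for lipid and sterol handling, 0 were higher and 5 lower, including the lipophorin gene *apolpp* (-0.89, SE 0.15), *Apoltp*, *fabp*, *Npc2b* and *Npc2g*. Of 10 metallothionein and iron genes, *MtnA* and *Tsf1* were lower and none higher. DESeq2 called only *apolpp* of these 7 genes. Of 10 gut immunity genes, 0 were called.

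Transcription factors of the midgut moved in both directions. Of 17 tested, 5 were higher and 4 lower, with a median log2 fold change of -0.26. *exex*, a homeobox factor, stood at 373 CPM in members against 23.9 CPM in other nuclei of the larger matrix and at 302 against 34.8 CPM in the smaller (3.49, SE 0.21). *vnd*, also a homeobox factor, stood at 565 against 82.9 CPM and at 365 against 78.1 CPM (2.46, SE 0.19). *nub* stood at 169 against 50.1 CPM and at 160 against 41.1 CPM (1.83, SE 0.21). *GATAe* stood at 147 against 68.0 CPM and at 158 against 88.8 CPM (0.93, SE 0.21), and *fkh*, a forkhead factor of the gut, at 596 against 313 CPM and at 496 against 262 CPM (0.89, SE 0.18). *exex* was found in 195 members and, after thinning, in 24.1% and 19.9% of members against 1.29% and 1.78% of other nuclei.

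The factors that were lower were *cad*, *zfh2*, *Hnf4* and *bab2*, of which DESeq2 called *Hnf4* and *bab2*. *cad*, a caudal homeobox factor of the posterior gut, had 0 UMIs in members of the larger matrix, at least 2.41-fold below the 17.2 CPM of other nuclei if a count of 0 allows 3 UMIs, and 4.91 against 19.1 CPM in the smaller. *Hnf4* remained abundant, at 1054 against 1492 CPM and 828 against 1275 CPM (-0.60, SE 0.16). *dve*, the most abundant factor of the list, was not called at 4839 against 3420 CPM and 4436 against 3619 CPM (0.36), although DESeq2 called it higher. *lab*, which specifies the acid-secreting copper cells, had 4 UMIs in members, and *Ptx1* 3.

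Of 10 genes for the brush border and smooth septate junction, 3 were higher and 0 lower. *mesh* stood at 135 CPM in members against 45.3 CPM in other nuclei of the larger matrix and at 120 against 56.0 CPM in the smaller (log2 fold change 1.29, SE 0.22). *Tsp2A* stood at 30.9 against 17.6 CPM and at 38.1 against 18.0 CPM (0.95, SE 0.32), and *hoka* at 78.3 against 31.8 CPM and at 67.6 against 52.9 CPM (0.74, SE 0.25). Both were called higher by edgeR, but DESeq2 called only *mesh*. *Ssk*, their partner in the junction, stood at 61.7 against 40.1 CPM and at 84.8 against 58.8 CPM and was not called, and neither were the brush border myosins *Myo31DF* and *Myo61F*.

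Of 11 proton pump and carbonic anhydrase genes tested, 9 were higher and 0 lower, with a median log2 fold change of 0.88. *Vha16-1*, the subunit of the proton channel ring, stood at 2647 CPM in members against 1362 CPM in other nuclei of the larger matrix and at 2242 against 1116 CPM in the smaller (0.95, SE 0.15). *Vha100-2*, an a subunit, stood at 254 against 105 CPM and at 230 against 87.7 CPM (1.30, SE 0.20), and the carbonic anhydrase *CAH1* at 1170 against 380 CPM and at 709 against 500.2 CPM (1.02, SE 0.17). *Vha100-1* and *CAH7* were not called. *CAH7* was called lower with DESeq2's size factors in edgeR and at 10 times the pooled share. It was also called lower in nuclei with at least 1000 UMIs, and against other nuclei with no UMI of the 6 genes. The call for *Vha100-5* rests on 7 UMIs in 4 members, and *Vha100-4* had 1 UMI in members. DESeq2 called 8 of these genes higher.

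**Figure D3:**
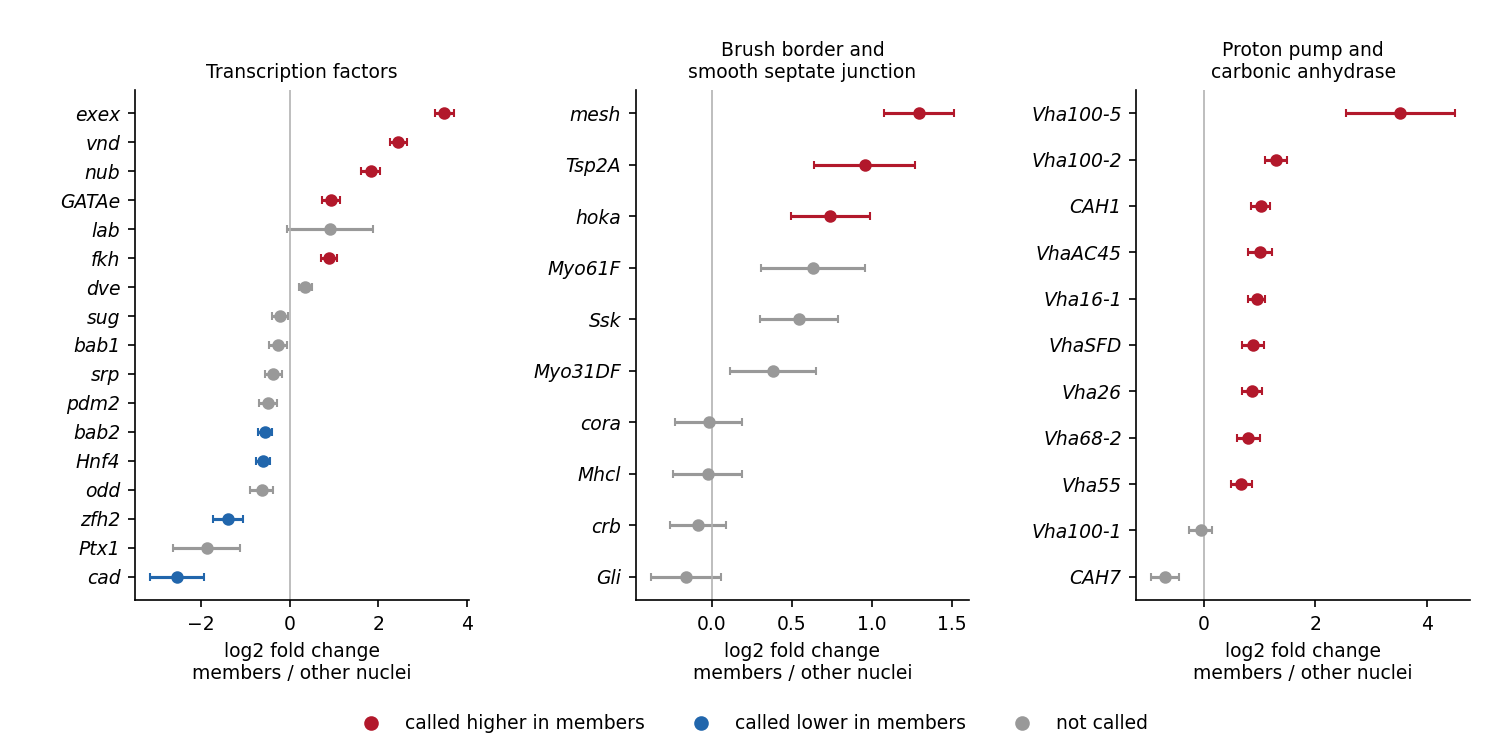
Log2 fold change of digestive enzyme nuclei over all other nuclei for the tested genes of 3 lists, with bars of 1 SE, red where called higher, blue where called lower and grey where not called by edgeR at an adjusted p of 0.05. *exex* leads the factors at 3.49, *mesh* the junction genes at 1.29, and 9 of 11 pump and carbonic anhydrase genes are red.

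Markers of other cells were lower or not called in most lists, but not absent. Of 10 fat body genes tested, 8 were lower and 0 higher, with summed levels of 6019 CPM in members against 12791 CPM in other nuclei of the larger matrix and 5396 against 7695 CPM in the smaller. *Lsp2* and *Fbp1* of that list had 0 UMIs in members, which allows up to 7.12 CPM in the larger and 3.69 CPM in the smaller matrix. *apolpp* alone stood at 2455 CPM in members of the larger and 3648 CPM in members of the smaller matrix, against 5680 and 5180 CPM in other nuclei. Of 14 muscle genes, 10 were lower and 0 higher (3571 against 5392 CPM and 3929 against 6681 CPM). The myosin heavy chain gene *Mhc* stood at 223 against 609 CPM and at 586 against 728 CPM. Of 9 oenocyte genes 4 were lower, of 7 heart genes 3 were lower, and 0 of either list were higher. DESeq2 called fewer of them lower, with 4 fat body genes, 6 muscle genes, the oenocyte gene *FASN3* and the heart gene *H15*. The heart factor *H15* had 30 UMIs in 6 members. The accessory gland list had 0 UMIs in members of the larger matrix, against 1.07 CPM in other nuclei, and 374 UMIs in members of the smaller (459 against 636 CPM), and none of its 10 genes was called. The part of free RNA in these levels was not tested.

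Nephrocyte genes, those of the labelled cell type, had a summed level of 1892 CPM in members against 2713 CPM in other nuclei of the larger matrix and 2019 against 2989 CPM in the smaller. Of 7 tested, 3 were lower (*kn*, *kirre* and *pyd*) and 0 higher, and DESeq2 called only *pyd*. Most of the sum came from *pyd*, at 1251 and 1108 CPM in members, and *kirre*, at 510 and 841 CPM. The slit diaphragm gene *sns* stood at 76.0 CPM in members against 52.1 CPM in other nuclei of the larger matrix and at 16.0 against 71.7 CPM in the smaller, and was not called. Of its 45 UMIs in members, 25 came from 1 nucleus. *Klf15*, a factor that nephrocytes need, had 0 UMIs in members. *sNPF* and *Tk*, peptides of enteroendocrine cells, were called higher, but 36 of 44 UMIs of *sNPF* and all 16 UMIs of *Tk* in members came from 1 nucleus of the larger matrix each. *AstA*, *AstC*, *Dh31* and *Orcokinin* had 0 UMIs in members. *Sox100B*, which acts in intestinal stem cells, was higher, with 23 of its 24 member UMIs in the smaller matrix, and the Notch receptor *N* was lower at 332 against 494 CPM and 115 against 220 CPM (-0.78, SE 0.19). DESeq2 called *N* but not *Sox100B*. The hindgut factor *byn* had 0 UMIs in members. Each 0 given here allows up to 7.12 CPM in the larger and 3.69 CPM in the smaller matrix, and is not read as absence. None of the neuron list (9 tested) was called, while the trachea, epidermis and hemocyte lists had 1 gene lower each. With 5.73% of all genes tested lower, 1 gene does not set such a list apart.

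**Figure D4:**
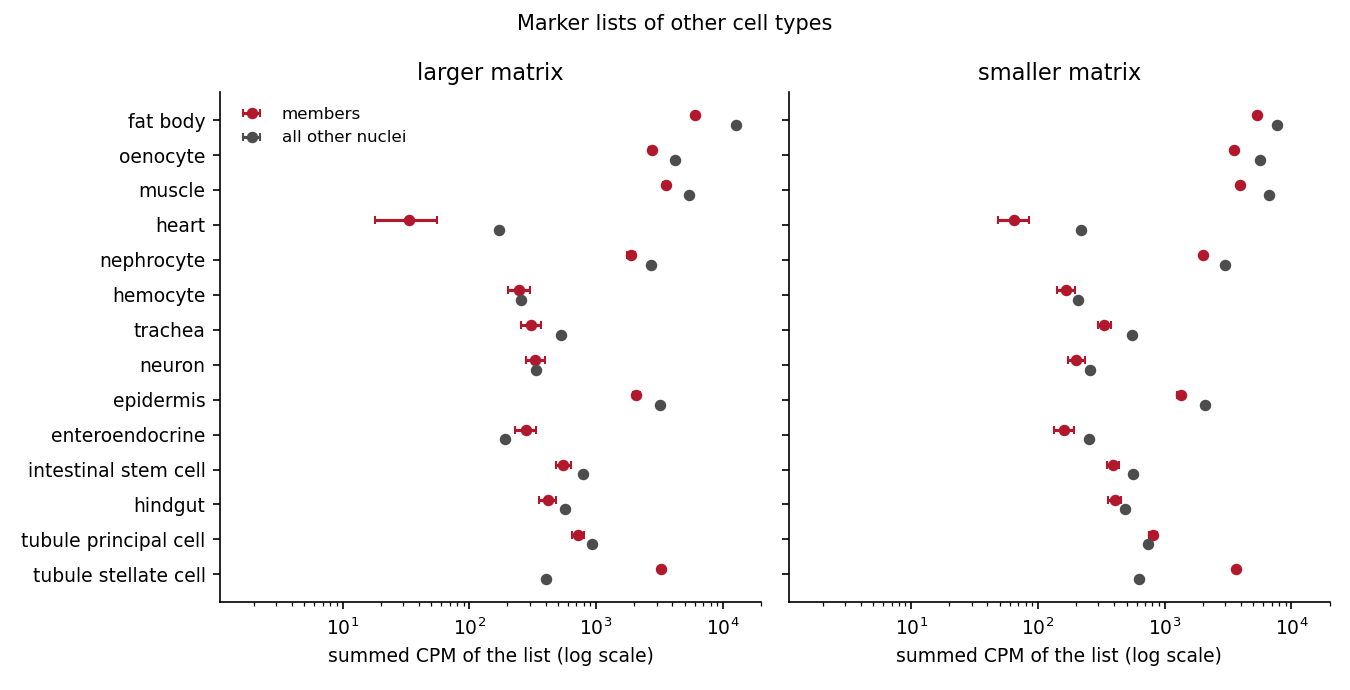
Summed CPM of marker lists of other cell types on a log scale in digestive enzyme nuclei (members, red) and all other nuclei (grey), with exact Poisson 95% intervals, larger matrix left and smaller matrix right. Fat body, muscle and heart lists lie lower in members, and the tubule stellate cell list lies higher, at 3284 CPM against 402 CPM in the larger matrix, through *SecCl*, *Prip* and *Drip*.

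By the same rule turned downward, 20 genes were lower in digestive enzyme nuclei, at less than 1 part in 3 of the level of other nuclei in each matrix. The 10 with the lowest ratio were *Oct-TyrR*, *lncRNA:CR45388*, *asRNA:CR44370*, *CG12998*, *CG14257*, *CG7300*, *Tom*, *mid*, *tnc* and *cad*. *Oct-TyrR*, a receptor for octopamine and tyramine, had 0 UMIs in members, at least 2.92-fold below the 20.8 CPM of other nuclei in the larger matrix and at least 9.64-fold below the 35.5 CPM in the smaller, with a count of 0 taken as up to 3 UMIs. *mid*, a T-box factor of the heart, stood at 2.37 against 20.6 CPM and at 3.69 against 21.4 CPM. For 5 of the 10 the condition carries weight in 1 matrix alone, since other nuclei had under 1 CPM in the other matrix, where members had 0 UMIs. These were *CG7300*, *Tom*, *lncRNA:CR45388* and *CG12998*, at 0.231, 0.173, 0.289 and 0.520 CPM in other nuclei of the smaller matrix, and *asRNA:CR44370*, at 0.321 CPM in those of the larger.

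Digestive enzyme nuclei were also split by the number of the 6 genes they showed, after the values were seen and without a test. This division uses values that chose the nuclei, so differences between its classes cannot be separated from the selection. The classes held 69, 53 and 36 nuclei with 2, 3 and 4 or more genes in the larger matrix, and 101, 54 and 36 in the smaller. These classes also differ in depth, with median totals of 984, 1576 and 2618 UMIs in the larger matrix and 1725, 2709 and 4471 UMIs in the smaller. *CG4928* stood at 25360, 18820 and 10727 CPM in the 3 classes of the larger matrix and at 12414, 11474 and 8116 CPM in those of the smaller. *SecCl* stood at 4138, 3376 and 1197 CPM and at 3884, 3763 and 1484 CPM. Both were lowest where 4 or more genes were seen. *nub* ran the other way, at 115, 136 and 241 CPM and at 90.4, 144 and 237 CPM, as did *Oatp33Ea*, at 79.7, 181 and 312 CPM and at 109, 194 and 278 CPM. *Mal-A6* stood at 44.3, 38.8 and 97.6 CPM and at 7.53, 34.9 and 234 CPM. The last of these values rests on 68 UMIs, of which 29 came from 1 nucleus. *Jon65Aiii* showed no such order, at 2915, 3434 and 2856 CPM and at 1967, 3149 and 2346 CPM.

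Nuclei outside the rule were also grouped after the values were seen, and are given without a test. In 170 nuclei of the larger and 159 of the smaller matrix, 1 of the 6 genes alone passed the share threshold, and in 168 and 155 of these it was *Amy-p*. *CG4928* stood at 23308 and 19569 CPM in them and *SecCl* at 3265 and 5217 CPM. Both values were below those of members with 2 genes in the larger matrix (25360 and 4138 CPM) and above them in the smaller (12414 and 3884 CPM). *exex* stood at 347 and 457 CPM. *Jon65Aiii* stood at 169 and 293 CPM, against 3084 and 2476 CPM in members, and *yip7* at 123 and 226 CPM. Nearly all of these nuclei hold no *Jon65Aiv* by their definition, and *Jon65Aiii* is its close copy. The difference in *Jon65Aiii* therefore cannot be separated from the way the nuclei were chosen. In nuclei with none of the 6 genes, *CG4928* stood at 729 and 432 CPM, *SecCl* at 49.2 and 49.9 CPM and *Jon65Aiii* at 19.1 and 22.5 CPM. These nuclei had median totals of 1236 and 1288 UMIs.

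**Figure D5:**
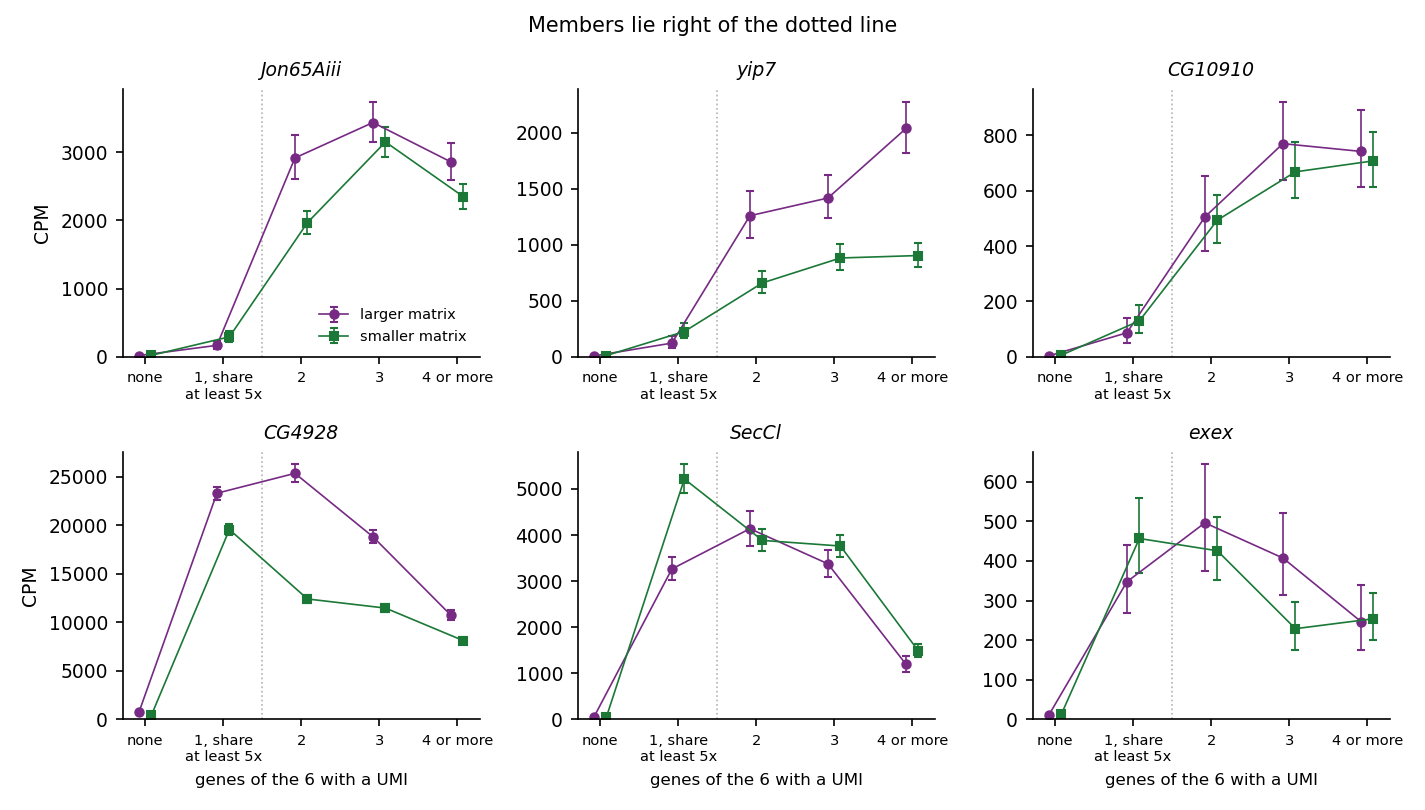
CPM of 6 genes by the number of rule genes found in a nucleus, for the larger (circles) and smaller matrix (squares), with exact Poisson 95% intervals. Members lie right of the dotted line. Left of it lie nuclei with none of the 6 genes and nuclei where 1 gene, mostly *Amy-p*, passed the share threshold. The latter had 23308 CPM of *CG4928* and 169 CPM of *Jon65Aiii* in the larger matrix.

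The share of the 6 genes, which chose the members, varied widely among them. A division at 20 times was made after the values were seen and is given without a test. The share was over 20 times the pooled share in 63 members of the larger and 61 of the smaller matrix, with highest values of 80.5 and 133 times. *CG4928* stood at 31566 and 19372 CPM in these nuclei, against 13769 and 8724 CPM in members at 5 to 20 times. *apolpp* stood at 439 and 1811 CPM in them, against 3011 and 4036 CPM in members at 5 to 20 times and 5720 and 5516 CPM in nuclei with none of the 6 genes. *Mhc* stood at 87.8 and 77.5 CPM, against 261 and 693 CPM in members at 5 to 20 times. *Mhc* did not follow the share throughout, since members at 5 to 6 times stood at 76.8 and 70.8 CPM. The nuclei over 20 times were also shallower, with median totals of 1123 and 1483 UMIs against 2372 and 3114 UMIs.

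Members with *mex1* UMIs were also set against members with enzyme UMIs alone. *mex1* is a gene of the rule, so this division uses a value that chose the nuclei, and its calls are a description. The first class held 5 nuclei with 10679 UMIs in the larger matrix and 16 nuclei with 92081 UMIs in the smaller, against 153 and 175 nuclei. Of 3038 genes, edgeR called 5 higher (0.165%) and 6 lower (0.197%). Nothing is read from single genes here. In the first class of the larger matrix 1 UMI stands for 93.6 CPM. *Diedel3*, called higher, took all its 17 UMIs in the first class of the smaller matrix from 1 nucleus, and *CG6295*, also called higher, all its 15 UMIs in that of the larger from 1 nucleus.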

How the data were processed

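Nephrocytes of 1 female and 1 male sample were profiled by droplet-based snRNA-seq. The authors ran Cell Ranger and deposited the raw UMI counts, unnormalized, as 2 tables with a row per gene and a column per nucleus. The submitters' processing notes also name FastQC and Seurat. The sources used here do not give the Cell Ranger version or genome build, so no coordinates are printed. The labels and the methods differ on the library kit version and the temperature at which flies were kept. The tables' names give a sex each, but samples were assigned only from column names. None of the 13868 barcode columns named a sample, so each table was taken as 1 unnamed matrix.

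FlyBase identifiers were matched to symbols (15355 of 15423). Neighboring genes were taken from RefSeq (Release 6). The 6 rule genes stayed in library sizes and were not tested. The members and gene lists were chosen with earlier results of these data known. Counts were summed per matrix, for members and for all other nuclei, and tested with edgeR 4.0.16 in R 4.3.3 (TMM, filterByExpr, quasi-likelihood, Benjamini-Hochberg), with the matrix as a block because both sums of a matrix come from the same preparation. The SE is the log2 fold change over the square root of F. CPM is per 1000000 summed UMIs. Thinning drew 500 UMIs per nucleus without replacement with a fixed seed. Genes were named where they belonged to the rule or to a list, or were among the 20 highest or 10 lowest ratios under the size rule (at least 20 UMIs found or expected, more than 3 times higher or lower in each matrix, adjusted p of 0.05 or less). Further genes, such as *CG4928*, *Ncc69*, *nAChRalpha3*, *TyrR*, *Phae1* and *Phae2*, ranked lower under that rule and were chosen after their values were seen. No doublets were called or removed. The test was first run on simulated data, with large changes placed only in genes with the most expected UMIs. That run says nothing about calls that rest on few UMIs or on 1 nucleus. Alternatives were DESeq2 1.42.0, its size factors, no filter, no block, other cutoffs of the rule, deeper nuclei and another set of other nuclei. Python 3.11.15 was used for the rest.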

Additional observations from a re-analysis of the deposited data

How the results depend on the processing

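With 2 matrices, each number of genes called rests on the block. Without the block that pairs the sums of 1 preparation, 0 genes were higher and 0 lower by edgeR (smallest adjusted p 0.144, 718 genes with an unadjusted p under 0.05), and the comparison of members with and without *mex1* also gave 0 and 0 (84 genes with an unadjusted p under 0.05). DESeq2 called 272 genes higher and 155 lower, of which 265 and 155 were shared with edgeR, so the split between higher and lower turned round. In the *mex1* comparison it called 2 higher and 2 lower. Under the other settings the numbers lay between 306 and 513 higher and between 447 and 783 lower. DESeq2's size factors gave 513 and 651, with a median log2 fold change of -0.10 over all genes.

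The number of digestive enzyme nuclei was 179 if 3 of the 6 genes were asked for, 238 at 10 times the pooled share, 341 with the share of each matrix, 243 after thinning to 500 UMIs (225 of them members) and 246 with at least 10 summed UMIs, a setting chosen after seeing the data.

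Of 142 named genes called, 98 kept their call under DESeq2, 41 did not and 3 were given no adjusted p, and 0 kept it without the block. All 142 kept it with DESeq2's size factors. *sNPF* turned to -0.48 at 10 times the share, and *Yp2* to 0.83 without replicate 1 (the larger matrix), where it had 1 UMI in members, and to -0.81 without replicate 2. With 1 matrix left out, the log2 ratio of CPM in the other differed from the fitted value by more than the spread between the matrices for 11 of the 142 genes without replicate 1, *Vha100-2* and *VhaSFD* among them, and for 24 without replicate 2. A number of genes called could not be tested with 1 matrix left out, since no residual degree of freedom remains. Depth limits genes such as *epsilonTry* and *Vha100-5*, which rest on few UMIs.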

Other observations

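Further genes were higher in digestive enzyme nuclei than in all other nuclei by edgeR, and are given as values that belong to no list. They were chosen after their values were seen. *CG3819* stood at 2778 CPM in members against 258 CPM in other nuclei of the larger matrix and at 1277 against 206 CPM in the smaller, in 283 of 349 members. *CG34232* stood at 748 against 21.0 CPM and at 421 against 26.1 CPM, in 192 members. *CG33346* stood at 264 against 8.62 CPM and at 252 against 16.8 CPM, in 140 members. *AANATL3*, of the arylalkylamine N-acetyltransferase family, stood at 54.6 against 0.482 CPM and at 89.7 against 2.48 CPM, in 47 members. Its call is a description, since it had enough UMIs for the test only with a sum of members. *orb*, an RNA-binding protein known from the germline, stood at 97.3 against 3.05 CPM and at 73.7 against 12.4 CPM, in 59 members. *ths*, a fibroblast growth factor ligand, stood at 321 against 44.6 CPM and at 475 against 67.9 CPM, but 150 of its 522 UMIs in members came from 1 nucleus.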
